A study of Rattus norvegicus with 24 samples.

Results

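The genes described here are 6 metabotropic glutamate receptors, Grm2, Grm3, Grm4, Grm5, Grm7 and Grm8, and the receptor scaffold Homer1. They were found by gene name among 26641 named loci of 42334 loci in all, each of the 7 names had 1 locus, and all 7 passed the filter on low values in both regions. They were measured in polyadenylated RNA of adult male Sprague-Dawley rats killed 3 months after a lateral fluid-percussion injury of the left side (TBI, 6 rats) or a sham operation with anaesthesia and the same surgery but no impact (6 rats). The labels name no transgene and no drug in either group. Each rat gave 1 library of perilesional cortex and 1 of ipsilateral thalamus, 24 in all, with 6 libraries in each of the 4 groups. The study chose its TBI rats for signs of inflammation around the lesion on magnetic resonance imaging, so these 6 stand for that subset of injured rats.

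Metabotropic glutamate receptors are G protein-coupled receptors that tune transmission at glutamatergic and other synapses over slower times than the glutamate-gated ion channels. Group I receptors such as Grm5 couple to Gq, which activates phospholipase C and releases calcium from internal stores. Group II (Grm2, Grm3) and group III (Grm4, Grm6, Grm7, Grm8) couple to Gi or Go and lower cyclic AMP, many of them at presynaptic endings where they reduce transmitter release. Homer proteins bind the intracellular tail of group I receptors and tie them to inositol trisphosphate receptors and to the Shank proteins of the postsynaptic density, and a short product of Homer1, made after neuronal activity, uncouples these links.

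The deposited value for a locus is its number of fragments after division by the size factor of the library, here called a normalized count. The libraries held between 30568927 and 54608922 fragments. For each region, limma was run on log2(normalized count + 1) over the TBI and sham libraries and across all named loci with a mean of at least 10. A difference was called when its p, adjusted by the Benjamini-Hochberg method, was under 0.05. All fold changes are on that log2 scale with their standard errors (SE), and the same applies to every adjusted p. The values are not scaled by transcript length, so levels are compared between groups for one gene and not between genes. In tissue RNA, fewer cells of a type and less RNA per cell cannot be told apart.

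The 24 libraries matched their region labels. The summed normalized count of 7 cortical marker genes ran from 24133 to 32264 in the cortex libraries and from 4512 to 6057 in the thalamus libraries, and that of 7 thalamic markers from 2908 to 4109 and from 53268 to 103722. Other markers moved with the injury. The sum of 11 neuronal markers lay between 277284 and 368815 in TBI cortex against 397625 to 426888 in sham cortex, and between 182842 and 226336 in TBI thalamus against 274524 to 330157 in sham thalamus, with 8 and 9 of the 11 genes called lower. Of 10 microglial markers, 9 were called higher in the cortex and 10 in the thalamus, and of 9 astrocyte markers 5 in each region, with 1, Aldoc, called lower in the cortex. Choroid plexus markers marked single libraries, led by the thalamus of TBI rat 45 with a sum of 271840 against at most 1854 in the other TBI thalamus libraries, followed by the thalamus of sham rat 50 with 110357. Of 5 striatal markers 2 were called lower in the thalamus, and the sum ran from 4131 to 6617 in TBI and from 3743 to 9941 in sham rats. Of 3 hippocampal markers 2 were called lower in the thalamus, with sums of 3257 to 4438 in TBI and 4917 to 5787 in sham rats. This sum rests mostly on Prox1, with a mean of 2035 over the 24 libraries against 489 for C1ql2 and 60.8 for Dsp. Whether it stands for hippocampal tissue was not tested.

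**Figure D1:**
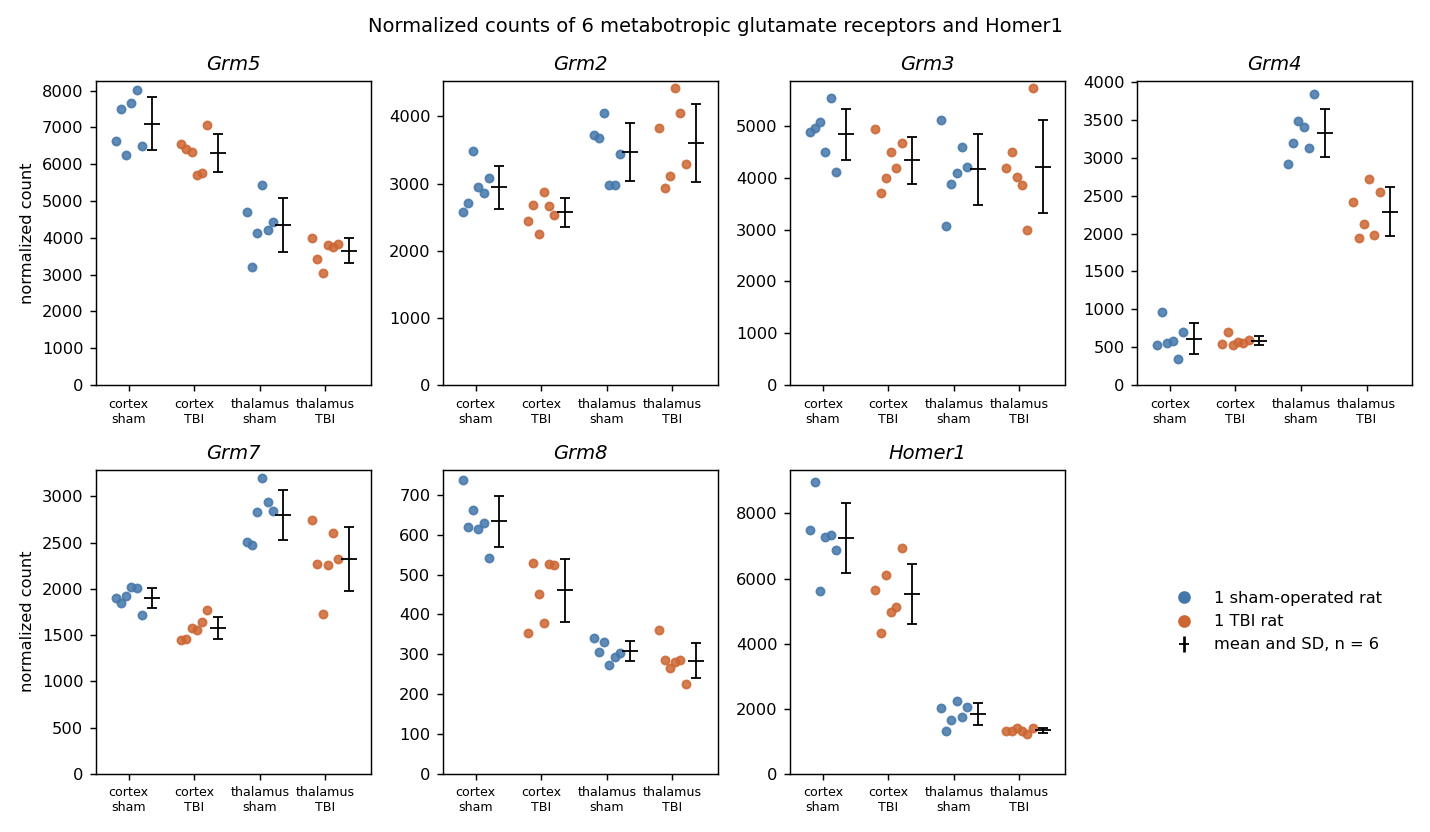
Normalized counts (vertical axes, each starting at 0) of the 7 genes in the 4 groups, with 1 point per rat and the mean and SD of 6 rats beside them. Grm4 in the thalamus (1938 to 2719 in TBI rats, 2921 to 3838 in sham rats) and Grm8 in the cortex (352 to 529 against 541 to 737) have TBI and sham points that do not overlap.

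In the perilesional cortex 3 of the 7 genes were called lower in TBI rats, Grm7, Grm8 and Homer1, and 0 were called higher by limma or by an edgeR test of the recovered fragments. Over all 15493 loci tested there, 14.9% were called lower and 14.3% higher. The fitted change was below 0 for 7 of 7 genes, although that of Grm4 (-0.0097) turned its sign with upper quartile scaling. The median log2 fold change of the 7 was -0.19 against -0.0096 over all loci tested. An unadjusted p under 0.05 was found for 5 of the 7, against 40.8% of all loci, and for 3 of the 7 in 1 fit over 24 libraries, with or without the rat as a block. In the ipsilateral thalamus 3 of the 7 were called lower, Grm4, Grm7 and Homer1, and 0 higher by limma or edgeR, where 20.9% of 15564 loci were called lower and 14.5% higher. The fitted change there was below 0 for 5 genes and above 0 for 2, the median of the 7 was -0.24 against -0.023 over all loci, and 4 of the 7 had an unadjusted p under 0.05, against 44.7% of all loci. Groups that did not overlap, with TBI below sham, were found for 1 of the 7 genes in each region, Grm8 in the cortex and Grm4 in the thalamus, against backgrounds of 5.45% and 10.7% of the loci tested. For the 11 neuronal markers the median log2 fold change was -0.28 in the cortex and -0.47 in the thalamus. The part of these markers in the levels of the 7 genes was not tested.

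The balance of calls over all loci depended on the scaling in both regions. Of all loci called in the thalamus, 59.05% were lower in TBI rats with the deposited scaling and 45.76% with TMM scaling. In the cortex the share was 50.94% with the deposited scaling, 48.87% with TMM scaling and 43.38% with upper quartile scaling. Directions in both regions are therefore relative to the deposited size factors. The calls of Grm4 and Homer1 in the thalamus, and those of Grm7, Grm8 and Homer1 in the cortex, were kept under TMM scaling, upper quartile scaling and edgeR.

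**Figure D2:**
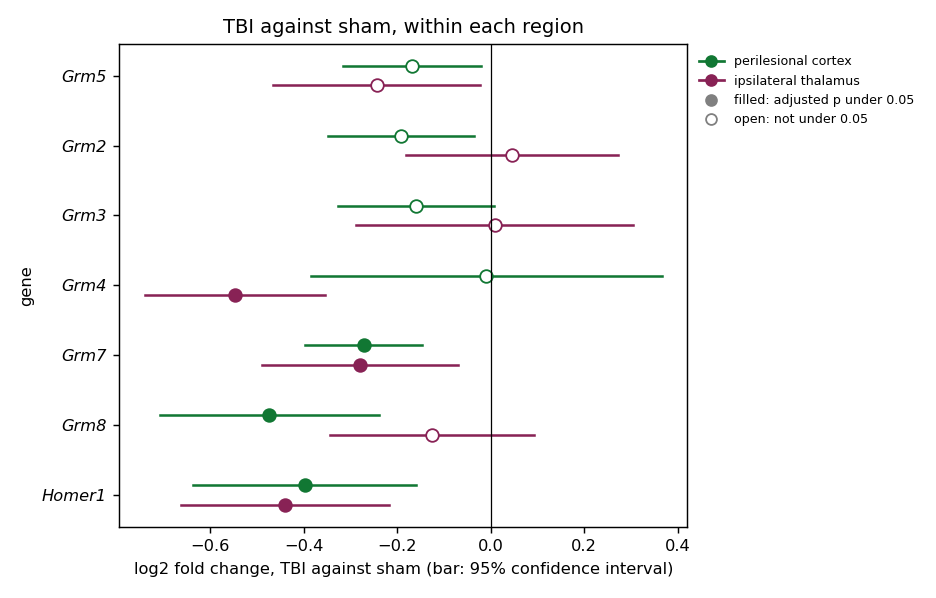
Log2 fold change of TBI against sham (horizontal axis) with its 95% confidence interval for each of the 7 genes (vertical axis) in the cortex and the thalamus, from limma with 6 rats per group. Filled points have an adjusted p under 0.05 and are Grm7, Grm8 and Homer1 in the cortex and Grm4, Grm7 and Homer1 in the thalamus, all to the left of 0.

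Grm5, the group I receptor of the set, lies at chr1:157517948-158099686 of Rnor_5.0. In the cortex its normalized count ran from 5711 through a median of 6370 to 7065 in TBI rats and from 6257 through 7069 to 8012 in sham rats. The groups overlapped, with 2 of the 6 TBI rats below every sham rat. The group means were 6303 ± 508 and 7094 ± 718 (SD, n = 6 each), a log2 fold change of -0.17 (SE 0.070) with an adjusted p of 0.0819 by limma, which missed the threshold. In the thalamus the values were 3056, 3777 and 4004 (lowest, median and highest) in TBI rats and 3220, 4320 and 5447 in sham rats. Of the 6 sham rats, 5 lay above every TBI rat and rat 32 lay within the TBI range. This thalamic difference was -0.24 on the log2 scale (SE 0.10) with an adjusted p of 0.0808, and 1 fit over 24 libraries passed the threshold both without the rat as a block (0.0403) and with it (0.0420). Leaving out the thalamus library of sham rat 32 gave -0.33 with an adjusted p of 0.00763, and in the cortex leaving out TBI rat 63 or sham rat 34 gave 0.0351 and 0.0451, so that single libraries decided whether Grm5 was called in either region.

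The group II receptors were not called in either region. Grm2 (chr8:114705015-114718768), a presynaptic autoreceptor on glutamatergic endings, ran from 2249 through 2595 to 2873 in TBI cortex and from 2578 through 2900 to 3486 in sham cortex. The upper TBI rats lay among the sham rats and 3 TBI rats lay below all of them. On the log2 scale the fold change was -0.19 (SE 0.073) with an adjusted p of 0.0613. Leaving out TBI rat 52 or sham rat 26 brought the adjusted p to 0.0398 and 0.0358. In the thalamus Grm2 ran from 2931 to 4419 in TBI rats (median 3555) and from 2974 to 4048 in sham rats (median 3561), a log2 fold change of 0.046 (95% interval -0.18 to 0.27). The groups covered nearly the same range.

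Grm3 (chr4:21250258-21689226) is found in astrocytes as well as neurons. It ran from 3701 through 4349 to 4950 in TBI cortex and from 4107 through 4919 to 5543 in sham cortex, a log2 fold change of -0.16 (SE 0.078, adjusted p = 0.138). In the thalamus it ran from 2991 through 4107 to 5734 in TBI rats and from 3081 through 4154 to 5123 in sham rats. The log2 fold change there was 0.0083 (95% interval -0.29 to 0.30), and the coefficient of variation was 21.3% in TBI rats and 16.5% in sham rats. Grm3 thus had overlapping groups in both regions. In the same libraries the sum of the 9 astrocyte markers ran from 177399 to 220873 in sham thalamus and from 308890 to 361473 in TBI thalamus. The part of these markers in the level of Grm3 was not tested.

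The group III receptors differed in where they were called. Grm4 (chr20:8986545-9014619), a presynaptic receptor, was called in the thalamus, where its normalized count ran from 1938 through 2267 to 2719 in TBI rats and from 2921 through 3296 to 3838 in sham rats. Every TBI rat lay below every sham rat. The means were 2287 ± 322 and 3327 ± 321 (SD, n = 6 each), a log2 fold change of -0.55 (SE 0.090, adjusted p = 0.000349), or a level of 0.684 times that of sham rats. Leaving out each library in turn gave values between -0.60 and -0.50 and kept the call each time. In the cortex Grm4 was at 528 to 699 in TBI rats (median 566) and 341 to 964 in sham rats (median 570). The TBI rats fell inside the range of the sham rats, whose coefficient of variation was 33.8% against 10.5% in TBI rats. The log2 fold change was -0.0097 (95% interval -0.38 to 0.37), a value whose sign turned with upper quartile scaling, so that no direction is given for the cortex. In the thalamus 4 of 7 thalamic marker genes were also called lower in TBI rats, their sum running from 53268 to 62677 against 69864 to 103722 in sham rats. The part of these markers in the level of Grm4 was not tested.

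Grm7 (chr4:206090081-206681072), a receptor placed in the active zone of presynaptic endings, was called lower in both regions. In the cortex it ran from 1446 through 1567 to 1770 in TBI rats and from 1715 through 1912 to 2017 in sham rats. TBI rat 63 reached into the sham range, and the other 5 TBI rats lay below every sham rat. The log2 fold change was -0.27 (SE 0.059, adjusted p = 0.00339), and the call held without any single library. In the thalamus it ran from 1731 through 2295 to 2739 in TBI rats and from 2478 through 2837 to 3200 in sham rats, with 4 TBI rats below every sham rat. This gave a log2 fold change of -0.28 (SE 0.098, adjusted p = 0.0384). The thalamus call was fragile. It was lost with TMM scaling (adjusted p = 0.0783), upper quartile scaling (0.0788), no filter on low values (0.109) and edgeR (0.0909). It was also lost on leaving out any one of the libraries of TBI rats 24, 45, 52 and 63 and sham rats 34, 38, 50 and 55, with adjusted p between 0.0575 and 0.0835. The lowest thalamus value, 1731, belonged to TBI rat 45, the library with the choroid plexus markers, and without it the log2 fold change was -0.20.

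Grm8 (chr4:54228378-55151404) shares its locus with 2 Ensembl gene models that carry no symbol, so its value is that of the joined locus. In the cortex it ran from 352 through 488 to 529 in TBI rats and from 541 through 624 to 737 in sham rats. The groups did not overlap, and the gap between the highest TBI rat and the lowest sham rat was small beside the spread within each group. The means were 460 ± 79.9 and 633 ± 64.5 (SD, n = 6 each), with a log2 fold change of -0.47 (SE 0.11, adjusted p = 0.00512), or 0.720 times the sham level. The call held without any single library. In the thalamus Grm8 ran from 225 through 282 to 360 in TBI rats and from 273 through 304 to 341 in sham rats. The sham rats lay within the range of the TBI rats, and the log2 fold change was -0.13 (95% interval -0.34 to 0.092, adjusted p = 0.366).

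Homer1 (chr2:42106841-42212149), the scaffold of the group I receptors, was called lower in both regions. In the cortex it ran from 4326 through 5393 to 6951 in TBI rats and from 5618 through 7304 to 8958 in sham rats, with 3 TBI rats below every sham rat. The means were 5522 ± 925 and 7259 ± 1077 (SD, n = 6 each), and the log2 fold change was -0.40 (SE 0.11, adjusted p = 0.0154). Without the filter on low values, which brings 26641 loci into the test, the adjusted p was 0.0683. In the thalamus it ran from 1221 through 1325 to 1412 in TBI rats and from 1315 through 1878 to 2239 in sham rats. The 6 TBI rats lay close together, with a coefficient of variation of 5.06% against 18.1% in sham rats, and only sham rat 32 reached down into their range. The log2 fold change was -0.44 (SE 0.10, adjusted p = 0.00462), with a call that held without any single library. The values are per locus, so the long products of Homer1 and its short product induced by activity cannot be separated.

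Promoter sequences are shown for Grm7 and Homer1, the genes called lower in both regions. They come from RefSeq on GRCr8, another build than that of the loci above, and span 300 bases around the annotated start of each gene on its own strand. The RefSeq table matched 4 of the 7 genes, Grm5, Grm7, Grm8 and Homer1. Capitals mark GC boxes (GGGCGG on either strand), the binding motif of Sp1 and related factors.
Grm7, chr4:145286476-145286775, plus strand: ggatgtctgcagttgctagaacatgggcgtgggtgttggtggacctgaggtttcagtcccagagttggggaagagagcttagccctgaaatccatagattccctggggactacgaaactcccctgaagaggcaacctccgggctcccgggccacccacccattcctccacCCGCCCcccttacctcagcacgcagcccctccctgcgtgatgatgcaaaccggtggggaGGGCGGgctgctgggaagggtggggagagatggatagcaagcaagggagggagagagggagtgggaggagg
Homer1, chr2:26278762-26279061, plus strand: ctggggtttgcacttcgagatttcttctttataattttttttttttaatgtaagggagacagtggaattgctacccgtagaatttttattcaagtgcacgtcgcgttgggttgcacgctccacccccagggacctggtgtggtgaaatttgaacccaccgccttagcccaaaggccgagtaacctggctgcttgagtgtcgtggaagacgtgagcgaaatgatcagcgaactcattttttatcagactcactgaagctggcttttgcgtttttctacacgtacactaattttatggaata

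The Grm7 window is 62% G or C and holds 2 GC boxes, a motif found in 33.1% of 33469 RefSeq promoter windows of the same length. The Homer1 window is 44.7% G or C, the median over all windows being 51.7%, and holds no GC box. Neither window, nor those of Grm5 and Grm8, holds the cyclic AMP response element TGACGTCA (in 1.83% of all windows), its shorter core TGACG (21.2%, which includes the windows with the full element), the E-box CACGTG (6.42%) or the AP-1 motif TGANTCA (7.33%) on either strand. A match or its absence describes these letters in these windows and nothing more.

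Between the regions, in sham rats 6 of the 7 genes were called between thalamus and cortex in the fit over 24 libraries, Grm2, Grm4 and Grm7 higher in the thalamus and Grm5, Grm8 and Homer1 lower, where 33.5% of 15678 loci were called higher and 27.9% lower. In TBI rats the same 3 genes were called higher and the same 3 lower, where 32.7% and 27.9% of loci were called. Grm3 was not called in either group of rats.

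**Figure D3:**
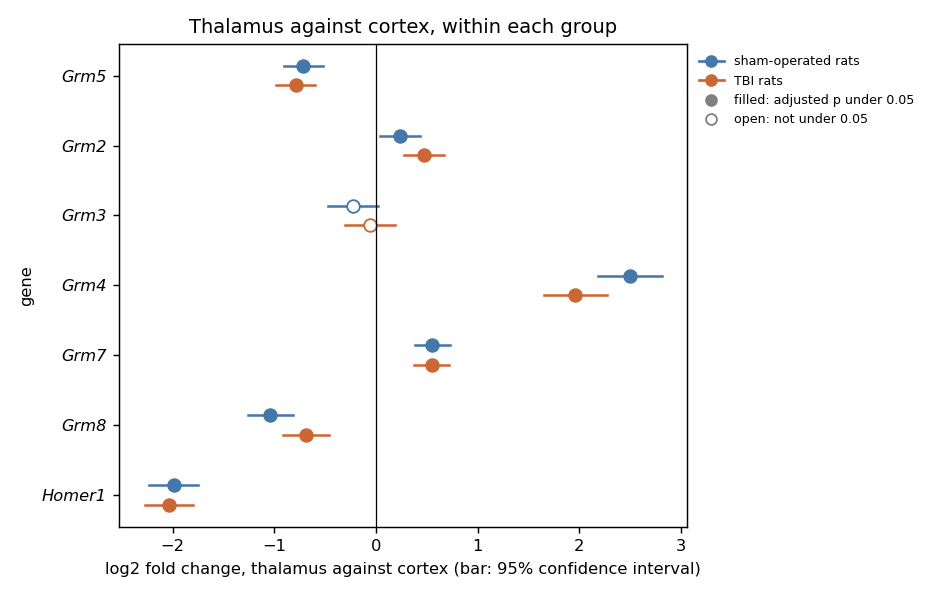
Log2 fold change of thalamus against cortex (horizontal axis) with its 95% confidence interval for the 7 genes (vertical axis) in sham-operated and TBI rats, from limma over 24 libraries. Grm4 lies farthest to the right (2.50 in sham rats, 1.96 in TBI rats) and Homer1 farthest to the left (-1.99 and -2.03), while the Grm3 intervals cross 0.

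Grm4 had the largest difference between thalamus and cortex among the 7 genes, with log2 fold changes of 2.50 (SE 0.15) in sham rats and 1.96 (SE 0.15) in TBI rats, or levels of 5.66 and 3.90 times those in the cortex. Every thalamus library exceeded every cortex library for this gene. Homer1 stood at the other end, with -1.99 (SE 0.12) and -2.03 (SE 0.12), or 0.251 and 0.244 times the cortex level, again without overlap. Grm5 was lower in the thalamus by log2 fold changes of -0.72 and -0.79 (SE 0.093 each), and Grm8 by -1.04 and -0.69 (SE 0.11 each). Grm7 was higher in the thalamus by 0.56 and 0.55 (SE 0.083 each). For these 5 genes the largest adjusted p by limma was 5.58e-06, that of Grm8 in TBI rats, and the calls held under every alternative run.

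Grm2 had a smaller difference between regions, 0.24 (SE 0.096, adjusted p = 0.0351) in sham rats and 0.47 (SE 0.096, adjusted p = 0.000133) in TBI rats. The call in sham rats was lost with TMM scaling (adjusted p = 0.0578), upper quartile scaling (0.0531), no filter (0.0748) and edgeR (0.0647). It was also lost without any one of the cortex libraries of sham rats 26, 32 and 50 or the thalamus libraries of sham rats 26, 32 and 34, with adjusted p between 0.0572 and 0.0963. The call in TBI rats held under every alternative run. For Grm3 the log2 fold changes were -0.23 (95% interval -0.48 to 0.016, adjusted p = 0.0991) and -0.061 (95% interval -0.31 to 0.18, adjusted p = 0.681), and leaving out the thalamus library of sham rat 26 brought the first to an adjusted p of 0.0394.

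Ordered by mean, Grm5 and Homer1 came in the same sequence, sham cortex, TBI cortex, sham thalamus and TBI thalamus, and so did Grm8. For these 3 genes the lowest cortex value lay above the highest thalamus value with 1 exception, Grm8, where the lowest TBI cortex value of 352 was below the highest TBI thalamus value of 360. For Grm4 the sequence was sham thalamus, TBI thalamus, sham cortex and TBI cortex, with the last pair not distinguishable. Grm7 had the same sequence, and its lowest TBI thalamus value of 1731 fell among the cortex values. For Grm2 the 2 thalamus groups came first and did not differ beyond their spread, followed by sham cortex and TBI cortex. The 4 groups of Grm3 overlapped throughout.

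Whether the effect of injury differed between the regions was tested as an interaction in the fit over 24 libraries. It was called for 0 of the 7 genes by limma and for 0 by edgeR, against 7.26% of 15678 loci by limma, and 2 of the 7 had an unadjusted p under 0.05 by limma, against 22.3% of loci. These were Grm4, with a difference of the log2 fold changes (thalamus minus cortex) of -0.54 (95% interval -0.98 to -0.097, adjusted p = 0.130), and Grm8, with 0.35 (95% interval 0.031 to 0.67, adjusted p = 0.179). Grm4 passed the threshold when the cortex library of sham rat 32, the highest at 964, was left out, with -0.68 and an adjusted p of 0.0196. The calls of Grm4 in the thalamus alone and of Grm8 in the cortex alone are thus not shown to differ between regions. For Grm7 and Homer1 the differences were -0.0072 (95% interval -0.25 to 0.24) and -0.042 (95% interval -0.38 to 0.29), both of which changed sign when single libraries were left out. For Grm5 the difference was -0.076 (95% interval -0.35 to 0.19), for Grm2 it was 0.24 (95% interval -0.041 to 0.52) and for Grm3 it was 0.17 (95% interval -0.18 to 0.52).

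Grm6, a group III receptor outside the set that is known from retinal bipolar cells, was low, with means of 89.0 and 87.0 in TBI and sham cortex and 22.9 in both thalamus groups.

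**Figure D4:**
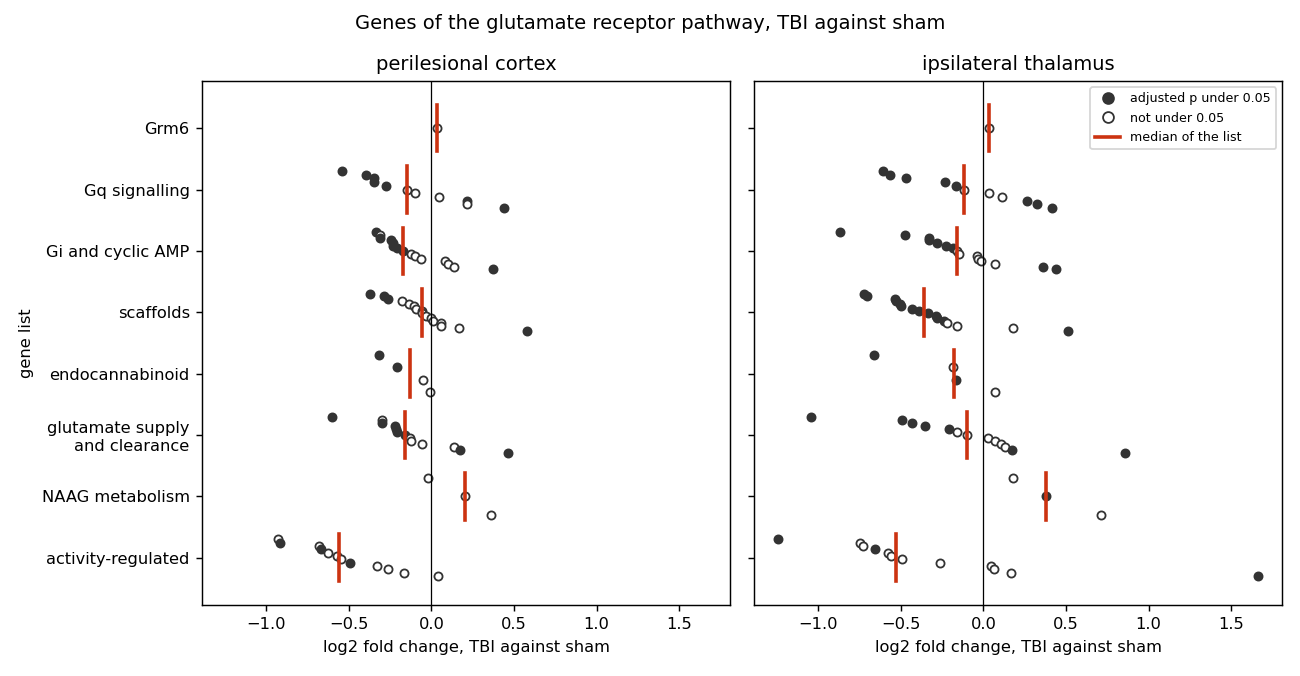
Log2 fold change of TBI against sham (horizontal axis) for each gene of 8 lists of the receptor pathway (vertical axis) in the cortex (left) and the thalamus (right), with filled points for an adjusted p under 0.05 and a red line at the median of each list. The scaffold list has its median at -0.057 in the cortex and -0.36 in the thalamus.

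Over all loci tested, 14.9% were called lower and 14.3% higher in the cortex, and 20.9% lower and 14.5% higher in the thalamus. These shares are the background for the count of each list below. Of 16 scaffold and receptor-binding genes, 3 were called lower and 1 higher in the cortex, and 12 lower and 1 higher in the thalamus. The medians of their log2 fold changes were -0.057 and -0.36. The gene called higher was Homer3 in both regions, with 447 ± 41.3 in TBI cortex against 301 ± 43.6 in sham cortex and 593 ± 91.8 against 413 ± 33.7 in the thalamus, log2 fold changes of 0.58 and 0.51, each without overlap and opposite in direction to Homer1. Homer2, named after its values were seen, was not called in the cortex (log2 fold change 0.010) and was called lower in the thalamus (-0.54, adjusted p = 0.00185). Dlgap1, a postsynaptic density protein that links PSD-95 to Shank, was called lower in both (-0.37 in the cortex and -0.43 in the thalamus). Its value is that of a locus joined with Tas2r143. The other genes called lower in the cortex were Dlgap2 and Frmpd4, also named after their values were seen, and the call of Dlgap2 was lost in 1 fit over 24 libraries both without the rat as a block (adjusted p = 0.154) and with it (0.160). Shank3 and Dlgap3 led the thalamus with -0.73 (adjusted p = 6.23e-05) and -0.71 (adjusted p = 0.000124), against 0.058 and -0.0019 in the cortex, where neither was called. In the thalamus the 5 striatal markers had a median log2 fold change of -0.85, and their part in these differences was not tested.

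Of 11 genes of the Gq arm, 5 were called lower and 2 higher in the cortex and 5 lower and 3 higher in the thalamus. Plcb4, a phospholipase C isoform, was called lower in both regions, with log2 fold changes of -0.54 and -0.61. Plcb1, the isoform best known downstream of group I receptors in the forebrain, was called lower in the cortex (-0.39, adjusted p = 0.000385) and was at 0.11 in the thalamus (adjusted p = 0.423). Its value is that of a locus joined with an Ensembl gene model that carries no symbol. Itpr1, an inositol trisphosphate receptor that releases calcium from internal stores, was at 14166 ± 1373 in TBI thalamus and 20995 ± 2203 in sham thalamus (SD, n = 6 each), without overlap, a log2 fold change of -0.57 (SE 0.079, adjusted p = 0.000103), and was called lower in the cortex by -0.28 (adjusted p = 0.000453). The other genes called lower in the cortex were Prkca and Prkcb, named after their values were seen. The genes called higher were Itpr2 and Plcb3 in both regions and Prkca in the thalamus, named after their values were seen. The Itpr2 call was lost in the cortex without the library of TBI rat 45 (adjusted p = 0.0527) or rat 22 (0.0511). In the thalamus the Itpr2 call was lost with no filter on low values (adjusted p = 0.0570). Gna11, also named after its values were seen, was called lower in the thalamus. Its call was lost under TMM scaling, upper quartile scaling and edgeR.

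Of 15 genes of the Gi and cyclic AMP arm, 7 were called lower and 1 higher in the cortex and 7 lower and 2 higher in the thalamus. Among those called lower were Gnai1 in the cortex and Gnaz and Gnb1 in the thalamus, named after their values were seen. These calls were lost under TMM scaling, upper quartile scaling and edgeR. Adcy1, a calcium-stimulated adenylyl cyclase of neurons, was called lower in both, by -0.34 in the cortex and -0.87 in the thalamus, and Adcy9 by -0.31 and -0.48. Gnai2, a Gi subunit also abundant in microglia and other immune cells, was called higher in both, by 0.38 and 0.44, as were 9 and 10 of the 10 microglial markers, whose part in the level of Gnai2 was not tested. The other gene called higher in the thalamus was Gnai3, named after its values were seen.

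Of 13 genes of glutamate supply and clearance, 6 were called lower and 2 higher in the cortex and 5 lower and 2 higher in the thalamus. Slc1a2, named after its values were seen, was among those called lower in the cortex (adjusted p = 0.0318). Its call was lost with upper quartile scaling (0.0595) and no filter on low values (0.442). Leaving out any one of the cortex libraries of TBI rats 24, 45 and 56 and sham rats 26, 32, 34 and 50 also lost it (0.0520 to 0.0699). Gls2, a glutaminase, was called lower in both (-0.30 and -0.49), as was the neuronal glutamate transporter Slc1a1 (-0.22 and -0.44). The others called lower in the thalamus were Slc17a7 and Slc38a1, named after their values were seen. Slc17a6, the vesicular glutamate transporter of thalamic relay neurons, was called lower in the cortex by -0.60 (adjusted p = 0.00128) and in the thalamus by -0.21 (adjusted p = 0.0226). The thalamus call was lost under TMM scaling (0.0661), upper quartile scaling (0.0658), edgeR (0.0743) and no filter on low values (0.0529). It was also lost in 1 fit over 24 libraries without the rat as a block (0.0867) and with it (0.0856), and without sham rat 55 (0.0512). The genes called higher in both regions were Glud1 and Slc7a11, named after their values were seen, and the call of Slc7a11 in the cortex was lost in the fit over 24 libraries without the block (0.104) and with it (0.101). The Slc7a11 call in the thalamus was lost with no filter on low values (adjusted p = 0.0707).

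Dagla, which makes the endocannabinoid released after activation of group I receptors, was called lower in the thalamus by -0.66 (adjusted p = 2.41e-05) and was at -0.010 in the cortex. Mgll, which degrades it, was called lower in both (-0.21 and -0.17). The thalamus call of Mgll was lost under TMM scaling (adjusted p = 0.0556), upper quartile scaling (0.0687) and edgeR (0.0649). Over the 4 endocannabinoid genes tested, 2 were called lower in each region and 0 higher, the second in the cortex being Cnr1, named after its values were seen. Of the 3 genes tested that make or cleave N-acetylaspartylglutamate, the agonist of Grm3, Folh1 was called higher in the thalamus by 0.38 (adjusted p = 0.000133) and none was called in the cortex, where 0 of the 3 had an unadjusted p under 0.05 by limma and edgeR called 0. Of 12 genes induced by neuronal activity, the setting in which the short Homer1 product is made, 3 were called lower and 0 higher in the cortex, and 2 lower and 1 higher in the thalamus. Arc, an immediate early gene of synapses, was called lower in the thalamus by -1.24 (adjusted p = 0.000112) and was at -0.93 in the cortex, where it was not called (adjusted p = 0.0959) and passed the threshold without the library of sham rat 32 (0.00949) and in 1 fit over 24 libraries without the rat as a block (0.0447) and with it (0.0450). The others called lower were Bdnf, Egr1 and Npas4 in the cortex and Nr4a1 in the thalamus, and Egr2 was called higher in the thalamus, all named after their values were seen. The Nr4a1 call was lost in the fit over 24 libraries without the block (adjusted p = 0.0733) and with it (0.0618), and without any one of the thalamus libraries of TBI rats 24 and 63 and sham rat 50 (0.0530 to 0.0535). Without the filter on low values 1 of the 12 was called lower in each region and 0 higher.

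The loci whose pattern over the 24 libraries was most like each gene were found among 15126 loci by the root mean square (RMS) difference of log2 values after each locus was centred on its mean. The measure is a description over libraries that share rats and scaling. Grm7 had the closest companions, Reep1 (RMS 0.0908) and Mfsd6 (0.0927). Those of Grm2 were Epha10 (0.121) and Oxld1 (0.133), those of Grm3 were Tcp11l1 (0.132) and Zfp106 (0.133), and those of Grm5 were 1700086L19RIK (0.123) and SCN2A1 (0.125). Grm8 was nearest to St8sia3 (0.167) and Ptgfrn (0.171), and Homer1 to Nlk (0.165) and the protein kinase C gene Prkcb (0.171). Grm4 had the most distant companions, the NMDA receptor subunit gene Grin2d and Gpr153 (0.234 each). Among the 7 genes themselves the closest pairs were Grm2 with Grm7 (0.255) and Grm5 with Grm8 (0.266), and the farthest was Grm4 with Homer1 (2.15).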

How the data were processed

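The members, pathway lists and marker lists were chosen with earlier results of these data known. Stranded libraries were made from polyadenylated RNA. Per the labels and the study's methods the authors used TopHat2 2.0.11, Bowtie2 2.2.2 and Cufflinks 2.2.1 with the Ensembl annotation of Rnor_5.0, which is taken here as the build of the positions. The methods also name RGSC3.4 as genome, and whether positions count from 0 or 1 is not stated. The authors deposited a normalized signal per locus and library, the fragment count over a size factor. Low values rose in even steps, each the worth of 1 fragment. Dividing by the step gave whole fragments within 0.1 for 100% of values up to 2000 fragments, although the automatic check could not be applied to the thalamus library of sham rat 55. Loci without a name, 37.1% of loci with 1.90% to 2.23% of the normalized counts, were left out.

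Tests used limma 3.58.1 in R 4.3.3 (lmFit, eBayes with trend) on log2(normalized count + 1), with a mean of at least 10 and Benjamini-Hochberg adjustment over all loci tested. TBI was compared with sham over the 12 libraries of a region, and regions and the interaction over 24. Each rat is a replicate, and both regions came from the same rats. For the 12 rats the correlation of these paired deviations from the group mean had a median of 0.187 (0.00393 to 0.569, 10 of them over 0.1), and for different rats it was -0.0332. Alternatives were TMM and upper quartile scaling, no filter, a stricter filter (mean 50 or more), pseudocounts 0.1 and 5 in turn, 1 fit over 24 libraries, the rat as a block, leaving out each library, and leaving out rat 45. An edgeR 4.0.16 quasi-likelihood test of the recovered fragments was added after seeing the data. In the cortex it called 2351 loci higher and 2084 lower, and for the thalamus these numbers were 2822 and 2300. The rule for named genes took the 7 members, the 2 genes per list and region with the largest called change without overlap, and the 2 loci nearest each member by RMS difference. Other genes are named where a count of calls was small or a gene was singled out, after their values were seen. Some genes of the lists are not reported here and were left out of every count of a list. The steps were tested on simulated data. Promoters are from RefSeq (GRCr8). Python 3.11.15 with pandas 2.3.3 made the tables, and matplotlib 3.10.9 the figures.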

Additional observations from a re-analysis of the deposited data

Results flagged for a closer look

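None of the 28 sets of 6 values, 7 genes in 4 groups, held a value far enough from the others to pass Dixon's test at the 95% level, where chance gives about 1 in 20. For 15 of the 75 pathway genes tested, the effect of injury differed between the regions by the interaction of the limma fit over 24 libraries at an adjusted p under 0.05, where 7.26% of all loci passed. The difference of the log2 fold changes, thalamus minus cortex, was negative for 8 genes with the deposited scaling. These were the scaffold and receptor partner genes Shank3 (-0.78, adjusted p = 0.00514), Dlgap3 (-0.70, adjusted p = 0.0208), Ncdn (-0.67), Homer2 (-0.55) and Dlg4 (-0.29), with Slc17a7 (-0.92), Dagla (-0.65, adjusted p = 0.00113) and Adcy1 (-0.53, adjusted p = 0.00781). It was positive for 7 genes, Egr2 (2.35), Prkca (0.67), Bdnf (0.56), Plcb1 (0.51, adjusted p = 0.0134), Folh1 (0.40, adjusted p = 0.0103), Glul (0.32) and Adcy2 (0.19). Those without a p here had adjusted p between 0.000324 (Prkca) and 0.0487 (Adcy2) by limma and were named after their values were seen. The lists were chosen with results of these data known, so this is a description. These 15 calls are from the fit with the deposited scaling, and no other run is given for them here. Over all loci, 62.48% of the interaction calls were negative with that scaling and 48.07% by edgeR. In the same thalamus libraries, 6 markers of inhibitory neurons were summed. The sum ran from 6660 to 17503 in TBI rats and from 22932 to 41246 in sham rats. The highest sham sum was that of rat 26, and the next highest was 27034. For the same difference, thalamus minus cortex, the median was -1.41 over 5 striatal markers (1 called lower) and -0.42 over 3 hippocampal markers (0 called). It was 0.91 over 2 markers of the habenula (0 called). The part of this sum and of these markers in these differences was not tested.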

How the results depend on the processing

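The count of the 7 genes called stayed between 2 and 4 under all alternatives in the comparison of TBI with sham, in the cortex and in the thalamus, and between 5 and 6 in the comparison of regions in sham rats, and was 6 in TBI rats. For the interaction it was 0, and 1 without the cortex library of sham rat 32, so that leaving out single libraries gave 0 to 1. With the rat as a replicate block it was 3 in the cortex and 4 in the thalamus, and 6, 6 and 0 in the other comparisons. Grm5 in the thalamus was the added call, as it was in the same fit over 24 libraries without the block. No other call among the 7 genes changed with the block. Of all loci called in the thalamus, 59.05% were lower in TBI rats with the deposited scaling, 45.76% with TMM, 47.66% with upper quartile scaling and 44.9% by edgeR. In the cortex these shares were 50.94%, 48.87%, 43.38% and 46.99%. For the interaction, the share of called loci with a negative difference, thalamus minus cortex, was 62.48%, 64.2%, 52.99% and 48.07% in the same order.

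Values near 0 changed sign. Upper quartile scaling turned Grm4 in the cortex to 0.0093, Dlgap3 to 0.017 and Dagla to 0.0091, and the interaction of Grm7 to 0.019. TMM turned Dlgap3 in the cortex to 0.0014. Leaving out rat 45 turned Grm4 to 0.018, Dlgap3 to 0.021 and Folh1 to 0.0060 in the cortex, and the interaction of Grm7 to 0.075. edgeR gave 0.042 for the latter. Leaving out each library in turn gave ranges that cross 0. In the cortex these were -0.17 to 0.13 for Grm4, -0.023 to 0.14 for Shank3, -0.10 to 0.079 for Dlgap3, -0.056 to 0.060 for Dagla and -0.058 to 0.034 for Folh1. In the thalamus they were -0.016 to 0.10 for Grm2 and -0.086 to 0.10 for Grm3. For Grm3 between regions in TBI rats the range was -0.16 to 0.032, and for the interaction it was -0.058 to 0.074 for Grm7 and -0.13 to 0.030 for Homer1. The causes were not tested. Of the values of the 7 genes and of the pathway genes named by the rule, under all alternatives, 1656 kept direction and side of the threshold, 34 lost a call, 12 gained one and 47 changed sign. The lowest value of the 7 genes, Grm8 in a TBI thalamus library, rested on 198 fragments.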
